A study of Mus musculus with 10 samples.

Results

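The transcripts of glucose uptake, glycolysis, lactate formation and pyruvate entry into the mitochondrion were followed in metanephric mesenchyme, which lies around the ureteric bud of the embryonic kidney and holds the progenitors of the nephron. The arrays measured 18193 genes in all. The list names 37 genes, chosen by their known place in the pathway, though with earlier results of these data known. A probe set annotated to a single gene measured 32 of them. Gapdh was read by control probe sets alone, and Gpi1, Pfkfb1, Eno1 and Mpc2 had no probe set annotated to a single gene and are not analysed here. Each gene was represented by the probe set with the highest mean over all arrays, and 18 of the 32 genes had more than 1 probe set.

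The tissue came from mouse embryos at E11.5 on 10 Affymetrix Mouse Genome 430 2.0 arrays. The mutant group held 5 arrays of Wnt9b-/- mesenchyme and the control group 5 arrays of mesenchyme that the sample labels give as Wnt9b+/+ littermates, called wild type here. The text on the study's design names Wnt9b+/- controls instead, and the sample labels were followed. Wnt9b-/- embryos lack the Wnt ligand that the ureteric bud secretes, and came from crosses of heterozygous parents. The mesenchyme was separated from the bud with trypsin and pancreatin, and RNA from 25 to 30 mesenchymes was pooled for each array. Each array had a pool of its own, so each p-value rests on the spread between pools, and which embryos or litters the pools share is not stated.

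Glycolysis turns glucose into pyruvate in the cytosol. Glucose enters through carriers of the Slc2a family, hexokinases trap it as a phosphate, phosphofructokinase commits it to breakdown, and pyruvate kinase makes the final step. Pyruvate is then either reduced to lactate and exported through Slc16a carriers, or taken into the mitochondrion and oxidised by the pyruvate dehydrogenase complex, which the Pdk kinases switch off. Nephron progenitors are known for a reliance on glycolysis, and the balance between lactate and oxidation has been studied as a part of their choice between self-renewal and differentiation. Myc and Hif1a are well-known activators of the pathway, and bind, respectively, motifs that hold CACGTG (the E-box) and ACGTG or GCGTG (the core of a hypoxia response element).

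Of the 32 measured genes, Hk2 and Slc16a1 stood lowest in the mutant against wild type, and Pfkp and Eno2 stood highest. The upstream sequences of Hk2 and Slc16a1 are shown because these were the only 2 of the genes whose 5 mutant arrays all lay below the 5 wild-type arrays. Each window holds the 250 bases before the RefSeq gene start on GRCm38.p6, read 5′ to 3′ on the strand of the gene. Capitals mark matches on either strand to the E-box and to the core motifs just named. The Hk2 window is chr6:82774455-82774704 on the minus strand, and the Slc16a1 window is chr3:104638414-104638663 on the plus strand.
Hk2: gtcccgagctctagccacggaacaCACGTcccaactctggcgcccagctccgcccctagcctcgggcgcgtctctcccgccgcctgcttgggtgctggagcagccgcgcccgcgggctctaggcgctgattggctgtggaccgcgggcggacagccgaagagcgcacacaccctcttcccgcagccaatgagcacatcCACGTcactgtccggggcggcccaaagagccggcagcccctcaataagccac
Slc16a1: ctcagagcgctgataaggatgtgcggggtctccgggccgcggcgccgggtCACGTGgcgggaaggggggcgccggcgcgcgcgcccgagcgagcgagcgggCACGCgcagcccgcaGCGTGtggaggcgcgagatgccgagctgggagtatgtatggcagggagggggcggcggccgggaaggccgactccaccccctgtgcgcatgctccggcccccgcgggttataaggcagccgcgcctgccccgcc
The Hk2 window held 2 matches to ACGTG, both on the reverse strand and therefore written CACGT, and none to CACGTG. The Slc16a1 window held 1 CACGTG, which contains ACGTG on both strands, and 2 matches to GCGTG. In all windows of this length, CACGTG occurred in 6.02% of 32851 windows, and ACGTG or GCGTG in 38.6%. Counted over genes, CACGTG was found in 6 of the 36 listed genes with a window (Ldha, Pdk2, Pfkfb2, Pfkfb3, Pfkm and Slc16a1) and in 6.86% of all genes. ACGTG or GCGTG was found in 30 of the 36 and in 41.5% of all genes. The bases G and C made up 69.6% of the Hk2 window and 76.4% of the Slc16a1 window. The shares over all genes were not matched for base composition, so these counts cannot be read as an excess. Of the genes that stood highest, the Pfkp window held 3 matches to GCGTG and none to ACGTG, and the Eno2 window held no match to any of the motifs. Unlike the printed windows, that of Pfkp lies inside the outermost bounds of its gene. It can hold an untranslated region of another transcript, so its matches cannot be taken as upstream of the whole gene. The Pfkp and Eno2 windows are not printed, and a missing match says nothing of the factors that bind these letters. The letters are a description of the sequence, and no binding was measured.

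Values are signals on a linear scale or, where stated, log2(signal + 1), called log2 signal, and every difference is mutant minus wild type on the log2 scale. The added 1 understates changes of very dim genes, and the dimmest probe sets of the listed genes also tended to scatter more between arrays. Levels of different genes cannot be compared because probe sets differ in response. The arrays had been scaled by the authors to the same trimmed mean, with medians between 5.99 and 6.30 in log2 signal and correlations between arrays of 0.915 to 0.955. The 18S 5′ control probe set separated 4 arrays with a high signal from 6 with a low one, with 2 and 3 arrays of each genotype, so each difference could also be read within both sets. Mutant replicate 2 and wild-type replicate 3 had the brightest hybridisation controls, at 11.87 and 11.48 in mean log2 signal, against 9.79 to 10.87 on the other 8 arrays. Wnt9b itself was dim in the mesenchyme (6.47 ± 0.14 in wild type and 6.23 ± 0.54 in the mutant, SD, n = 5 each). Where its probes lie relative to the deletion is unknown here, so this level does not check the labels. The nephron progenitor markers Six2 (10.45 in wild type and 9.79 in the mutant), Eya1 (10.93 and 10.20) and Wt1 (9.91 and 9.39) all lay well above the array medians. Means of the erythroid markers (9.17 to 9.79 in wild type) and endothelial markers (8.44 to 8.91) did too. These levels therefore do not check the purity of the mesenchyme.

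No listed gene passed an adjusted p of 0.05 in limma, and the smallest adjusted p among them was 0.403, for Pfkp. Over all genes tested the same threshold called 1 gene, 0.0055%, which was Btbd11, named here only because it was the single call. At an unadjusted p under 0.05, Hk2 and Slc16a1 were lower in the mutant, 2 of 32, against 2.08% of all genes. Pfkp and Eno2 were higher at that level, again 2 of 32, against 3.41% of all genes. The 5 mutant arrays lay wholly below wild type for 2 genes, Hk2 and Slc16a1, against 0.555% of all genes, and wholly above for 1, Pfkp, against 0.654%. The mean was lower in the mutant for 18 of 32, against 45.1% of all genes, and the median difference was -0.02, against 0.02 over all genes.

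Most genes of the pathway lay close to their wild-type level. The other 28 genes had differences between -0.35, for Pfkfb3, and 0.45, for Pdk4, and 25 of them lay within 0.25 of zero. The smallest unadjusted p among these 28 was 0.0974, for Pfkm. Precision differed between genes. The 95% interval of the difference lay within a 2-fold change either way for 26 of the 28, and within 1.5-fold for 21.

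**Figure D1:**
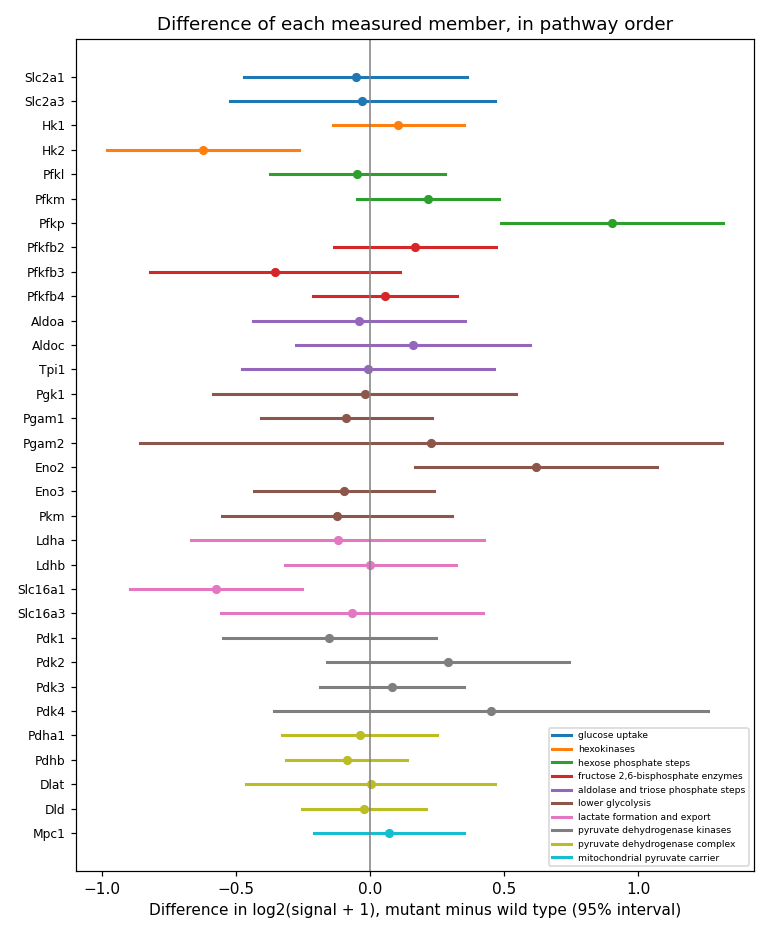
Difference in log2(signal + 1), mutant minus wild type, for the 32 measured genes in pathway order. Points are differences of group means over 5 arrays each, bars are 95% intervals from limma, and colours mark the step of the pathway. The intervals of Hk2 and Slc16a1 lie below zero and those of Pfkp and Eno2 above it, and all other intervals include zero.

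Both carriers of glucose uptake differed little between the genotypes. Slc2a1, the basal glucose carrier of most embryonic tissues, had signals of 1122, 1219, 1126, 798 and 1449.6 in the wild-type arrays and of 828, 1059, 1032, 1399 and 1164 in the mutant arrays. The ranges overlapped almost fully, and the difference was -0.05 (SE 0.19, 95% interval -0.47 to 0.36). Its other probe sets gave -0.03 and 0.04. Slc2a3, the high-affinity glucose carrier known from neurons and early embryos, was at 8.44 ± 0.46 in wild type and 8.41 ± 0.23 in the mutant (log2 signal, SD, n = 5 each). Its dimmest probe set stood apart, with a difference of 1.38 (SE 0.62), on signals of at most 50.6.

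Of the hexokinases, Hk2 was lower in the mutant at an unadjusted p under 0.05 and Hk1 was not. Hk2, the inducible hexokinase that binds mitochondria and is typical of growing and glycolytic cells, had signals of 883, 916, 791, 951 and 827 in wild type and of 483, 784, 639, 444 and 539.8 in the mutant. Every mutant array lay below every wild-type array, with mutant replicate 2 nearest to them. The mean log2 signal was 9.77 ± 0.11 in wild type and 9.15 ± 0.33 in the mutant (SD, n = 5 each), a difference of -0.62 (SE 0.16, 95% interval -0.98 to -0.26), or 1.54-fold lower. In limma the unadjusted p was 0.00314 and the adjusted p 0.544. In the high-18S set alone the difference was -0.83, in the low-18S set -0.48, and -0.78 without the pair of arrays with bright hybridisation controls. Leaving out each array in turn gave -0.74 to -0.54, with an unadjusted p of at most 0.00899 in limma. Hk2 had a single probe set, so no second one could be set beside it. Hk1, the constitutive hexokinase, was at 8.83 ± 0.14 in wild type and 8.94 ± 0.12 in the mutant, a difference of 0.11 (SE 0.11).

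Markers of the nephron progenitors also had lower means in the mutant, and none of them was called in the fit reported here. Of the 11 measured cap mesenchyme markers, 10 had a lower mean in the mutant and 8 of these had an unadjusted p under 0.05, with a median difference of -0.66. Over all genes tested, 45.1% had a lower mean and 2.08% were lower at an unadjusted p under 0.05. The smallest adjusted p among the markers was 0.391 in limma, for Itga8. Under 1 of the alternatives Itga8 had an adjusted p of 0.0499 in limma and was called. Their mean log2 signal per array was 9.37 to 9.55 in wild type and 8.35 to 9.20 in the mutant, and none was listed at 0. In pooled tissue, fewer progenitors and less RNA per progenitor cannot be told apart, and the part of either in the Hk2 and Slc16a1 values was not tested.

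Of the phosphofructokinase genes, Pfkp had a higher mean in the mutant at an unadjusted p under 0.05, and it was not called. This platelet-type subunit belongs to the enzyme that commits fructose 6-phosphate to glycolysis, together with the liver-type Pfkl and the muscle-type Pfkm. Its signals were 122, 141, 135, 166 and 101 in wild type and 336, 258, 186, 216 and 258 in the mutant. All 5 mutant arrays lay above all 5 wild-type arrays. The mean log2 signal was 7.05 ± 0.26 in wild type and 7.95 ± 0.32 in the mutant (SD, n = 5 each), a difference of 0.90 (SE 0.19, 95% interval 0.49 to 1.31), or 1.87-fold higher, with an unadjusted p of 0.00066 and an adjusted p of 0.403 in limma (at least 0.0871 under the alternatives). In the high-18S set alone the difference was 0.98, in the low-18S set 0.85, and 0.79 to 1.00 on leaving out each array in turn. Pfkp's dimmer probe sets gave 0.22 (SE 0.26) and 1.47 (SE 0.61), so their size varied while their direction was the same.

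The other subunits had smaller differences. Pfkl was at 10.47 ± 0.07 in wild type and 10.43 ± 0.29 in the mutant, a difference of -0.05 (SE 0.15), and its other probe sets gave -0.04 and -0.02. Pfkm was at 9.01 ± 0.14 and 9.23 ± 0.16, a difference of 0.22 (95% interval -0.05 to 0.48).

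The Pfkfb enzymes make and remove fructose 2,6-bisphosphate, the strongest activator of phosphofructokinase. Pfkfb3, the form with the highest kinase activity, had signals of 240.0, 169.8, 141, 191 and 167 in wild type and of 112, 218, 146, 129.8 and 115 in the mutant. Of the mutant arrays, 3 lay below all wild-type arrays, and mutant replicate 2 lay above 4 of them. The difference was -0.35 (SE 0.21, 95% interval -0.82 to 0.11) with an unadjusted p of 0.122 in limma. Without the arrays with bright hybridisation controls, mutant replicate 2 and wild-type replicate 3, it was -0.60 with an unadjusted p of 0.0059, and a second, dimmer probe set gave 0.09. The Pfkfb3 value thus depended on those 2 arrays and on the probe set. Pfkfb2, the heart form, had a difference of 0.17 (SE 0.14), and Pfkfb4, the testis form that hypoxia also induces, had one of 0.05 (SE 0.12).

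**Figure D2:**
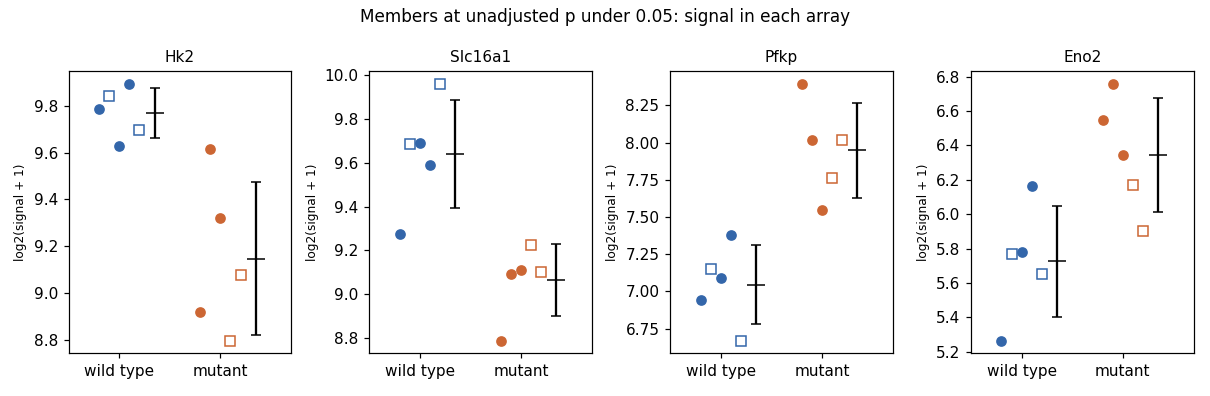
Log2(signal + 1) of Hk2, Slc16a1, Pfkp and Eno2 on each array, with wild type on the left and mutant on the right of each panel. Circles are low-18S arrays, open squares are high-18S arrays, and the bars give the mean ± SD of 5 arrays. The groups do not overlap for Hk2, Slc16a1 and Pfkp, and 1 mutant array lies among the wild-type arrays for Eno2.

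Aldolase and triose phosphate isomerase split fructose 1,6-bisphosphate and interconvert the products. Aldoa, the main aldolase of embryonic tissue, was at 12.52 ± 0.30 in wild type and 12.48 ± 0.25 in the mutant, and its 5 probe sets gave differences between -0.06 and 0.10. Aldoc, the brain aldolase, had signals of 68.9, 86.0, 98.0, 103 and 123 in wild type and of 142, 101, 96.6, 117 and 78.2 in the mutant. The groups overlapped, and the difference was 0.16 (SE 0.20). Tpi1 was at 12.50 ± 0.36 and 12.50 ± 0.33, a difference of -0.01 (95% interval -0.48 to 0.46). Gapdh, which oxidises glyceraldehyde 3-phosphate, was at 13.57 in both groups by its 5′ control probe set, with a difference of 0.00 (SE 0.28).

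In lower glycolysis, only Eno2 had an unadjusted p under 0.05. Eno2, the enolase typical of neurons and neuroendocrine cells, had signals of 37.4, 53.5, 54.0, 70.6 and 49.2 in wild type and of 92.5, 107, 80.1, 71.05 and 58.7 in the mutant. The groups overlapped, since mutant replicate 5 lay below wild-type replicate 4. The mean log2 signal was 5.73 ± 0.32 in wild type and 6.34 ± 0.33 in the mutant (SD, n = 5 each), a difference of 0.62 (SE 0.20, 95% interval 0.17 to 1.07), with an unadjusted p of 0.0124 and an adjusted p of 0.746 in limma. The difference was 0.33 among high-18S arrays and 0.81 among low-18S ones, and Eno2 was among the dimmest 40% of all genes.

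Neuronal genes were read beside Eno2. Of 5 measured markers of neurons and neural crest, 3 had a higher mean in the mutant and 2 a lower one, against 45.1% lower over all genes. Stmn2 (0.67, SE 0.19, unadjusted p 0.00633 in limma) and Foxd3 (0.99, SE 0.32, unadjusted p 0.0109) passed an unadjusted p of 0.05, as did 3.41% of all genes in that direction. The mean log2 signal of the 5 was 6.07 to 6.76 over the wild-type arrays and 6.32 to 7.10 over the mutant arrays, and none was listed at 0. Tubb3 was at 0.25 and Elavl4 at -0.16. Their part in the Eno2 value was not tested.

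The remaining genes of lower glycolysis differed by less than the spread between arrays. Pgk1, the first enzyme of glycolysis to make ATP, had a difference of -0.02 (SE 0.25), and its dimmer probe sets gave -0.10 and -0.07. Pgam1, the phosphoglycerate mutase of most tissues, was at 12.32 ± 0.14 and 12.23 ± 0.26. Its muscle counterpart Pgam2 was dim and scattered, at 4.51 ± 0.84 and 4.73 ± 0.85, so its difference of 0.23 had a 95% interval from -0.86 to 1.31. Eno3, the muscle enolase, had a difference of -0.10 (SE 0.15), with skeletal muscle markers at a mean of 4.75 to 5.64 in wild type and 5.18 to 6.25 in the mutant. Pkm, pyruvate kinase of growing tissue, was at 12.10 ± 0.27 in wild type and 11.98 ± 0.34 in the mutant, a difference of -0.12 (SE 0.19). The annotation names the gene and not its splice form.

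Several bright transcripts varied more between arrays than between genotypes. Pgk1 had signals of 17897 in wild-type replicate 3 and 17816 in mutant replicate 2, against 7926 to 10702 on the other 8 arrays. Ldha followed with 10864 and 10578 on the same pair, against 4597 to 6522. The Gapdh 3′ control probe set did the same, at 17257 and 17138 against 8211 to 10778. Both arrays also stood out in their hybridisation controls, and the part of that brightness in the signals was not tested. Over all 32 genes, mutant replicate 2 was the highest mutant array for 17 and wild-type replicate 3 the highest wild-type array for 14, while mutant replicate 4 was the lowest mutant array for 16. Each genotype held one of the bright arrays, and the group means of Pgk1 were 13.42 and 13.40.

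**Figure D3:**
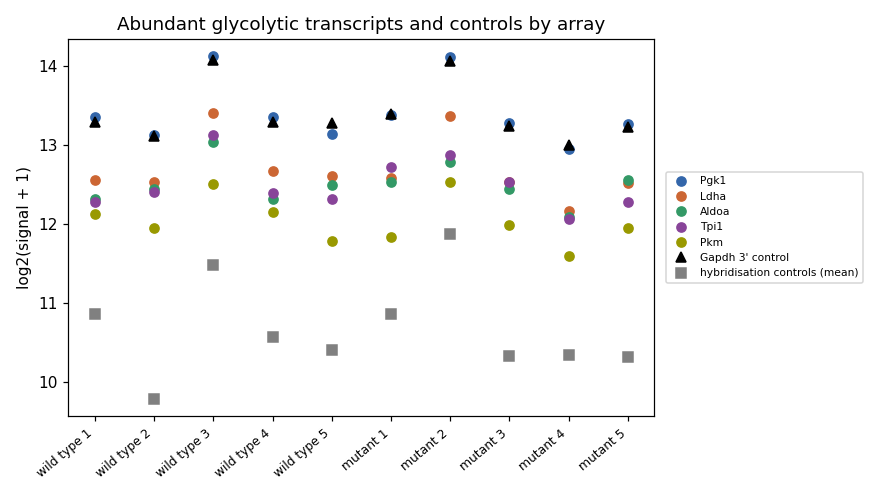
Log2(signal + 1) of Pgk1, Ldha, Aldoa, Tpi1 and Pkm, of the Gapdh 3′ control probe set and of the mean of 18 hybridisation control probe sets on each of the 10 arrays. Wild-type replicate 3 and mutant replicate 2 stand highest in each of these series.

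Lactate formation and export held the other lower gene. Slc16a1, also known as Mct1, carries lactate and pyruvate with a proton across the cell membrane. Its signals were 619, 822, 825, 769 and 995 in wild type and 441, 545, 551, 598 and 549 in the mutant. The groups did not overlap, with mutant replicate 4 nearest to wild-type replicate 1, but they did overlap with median centring. The mean log2 signal was 9.64 ± 0.25 in wild type and 9.06 ± 0.16 in the mutant (SD, n = 5 each), a difference of -0.58 (SE 0.14, 95% interval -0.90 to -0.25), or 1.49-fold lower, with an unadjusted p of 0.00257 and an adjusted p of 0.532 in limma. The difference was -0.66 among high-18S arrays and -0.52 among low-18S ones, and -0.67 to -0.50 on leaving out each array in turn. A second probe set was very dim, with a mean log2 signal of 2.89, and gave 0.04 (SE 0.47), so the mean of both was -0.27 with an unadjusted p of 0.325.

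The enzymes of lactate formation and the second exporter had smaller differences than Slc16a1. Ldha, the lactate dehydrogenase subunit that favours lactate formation, had a difference of -0.12 (SE 0.25, 95% interval -0.67 to 0.43). Ldhb, the subunit of oxidative tissues, was at 11.29 in both groups, with a difference of 0.00 (SE 0.14). Slc16a3, the lactate exporter that hypoxia induces, was at 6.79 ± 0.48 in wild type and 6.73 ± 0.17 in the mutant.

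The pyruvate dehydrogenase kinases phosphorylate and switch off the pyruvate dehydrogenase complex. Pdk2, the most widely expressed of them, had signals of 128, 121, 71.2, 103 and 108 in wild type and of 98.9, 172, 114, 149.7 and 116 in the mutant. The groups overlapped, and the difference was 0.29 (SE 0.20, unadjusted p 0.182 in limma). Pdk1, a target of Hif1a, was at 9.41 ± 0.21 and 9.26 ± 0.33, a difference of -0.15 (SE 0.18), which was -0.41 among high-18S arrays and 0.02 among low-18S ones. Pdk3 had a difference of 0.08 (SE 0.12). Pdk4, the kinase induced by fasting, was among the dimmest 40% of genes, and its difference of 0.45 had a 95% interval from -0.36 to 1.26.

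None of the subunits of the pyruvate dehydrogenase complex passed the test, and their intervals differed in width. Pdhb, the beta subunit of its first enzyme, had signals of 2842, 2888, 3118, 2960.2 and 2859 in wild type and of 2897, 3081, 2779.8, 2379 and 2710.0 in the mutant. All but mutant replicate 4 lay close together, and the difference was -0.09 (SE 0.10, 95% interval -0.31 to 0.14). Pdha1, the alpha subunit, had a difference of -0.04 (SE 0.13). Dlat, the acetyltransferase core, was at 8.07 in both groups with a difference of 0.00 (SE 0.21, 95% interval -0.46 to 0.47). Dld, the dehydrogenase shared with other complexes, had one of -0.02 (SE 0.10). Mpc1, a subunit of the carrier that takes pyruvate into the mitochondrion, had signals of 719, 632, 661, 510.3 and 646 in wild type and of 660.3, 592, 782, 663 and 624 in the mutant. The ranges overlapped, and the difference was 0.07 (SE 0.13).

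Isoenzymes were then compared within each array, as the log2 ratio of one gene to a gene of the same step, which removes any factor common to an array. A level of such a ratio has no meaning between probe sets, and only its difference between genotypes is read. A ratio shows unequal change, and does not show which of the pair changed. There were 9 pairs, tested by a two-sided exact permutation of the arrays with Benjamini-Hochberg adjustment over the 9. The permutation took all arrays as unpaired and exchangeable, though their titles hint at pairs. Pfkp enters 2 of the pairs. The ratios reuse the signals given above, in which the groups already did not overlap for Hk2 and Pfkp, so they are no separate evidence. An adjusted p over 9 pairs cannot be set beside an adjusted p over 18193 genes. How often other pairs of genes would pass was not computed.

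The ratio of Hk2 to Hk1 was lower in the mutant than in wild type. It was 0.80, 0.95, 0.99, 1.15 and 0.79 in wild type and -0.12, 0.68, 0.29, 0.05 and 0.15 in the mutant. The groups did not overlap, and the difference was -0.73 (exact permutation p 0.00794, adjusted 0.0357). The ratio of Pfkl to Pfkp was 3.51, 3.27, 3.48, 3.02 and 3.87 in wild type and 1.87, 2.89, 2.89, 2.37 and 2.38 in the mutant. These groups did not overlap either, with a difference of -0.95 (exact permutation p 0.00794, adjusted 0.0357). The ratio of Pfkm to Pfkp overlapped in 1 array of each group and differed by -0.69 (exact permutation p 0.0159, adjusted 0.0476).

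The other ratios did not pass. Pfkfb3 to Pfkfb2 differed by -0.52 and Slc16a1 to Slc16a3 by -0.51, each with an adjusted p of 0.0714 in the exact permutation test. Pdk1 to Pdk3 differed by -0.23, Aldoa to Aldoc by -0.20, Ldha to Ldhb by -0.12 and Slc2a1 to Slc2a3 by -0.03. The exact p of 0.00794 is the smallest that 5 arrays a group can give. None of the 9 pairs passed with the mean of each gene's probe sets, without the arrays with bright hybridisation controls (adjusted exact p 0.0514 for Hk2 to Hk1), or on leaving out wild-type replicate 1, 4 or 5 or mutant replicate 1, 4 or 5 (0.0714), and 5 passed without mutant replicate 2. The direction of the 3 was the same in each of these, with Hk2 to Hk1 between -0.85 and -0.65 and Pfkl to Pfkp between -1.05 and -0.80 on leaving out each array in turn.

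**Figure D4:**
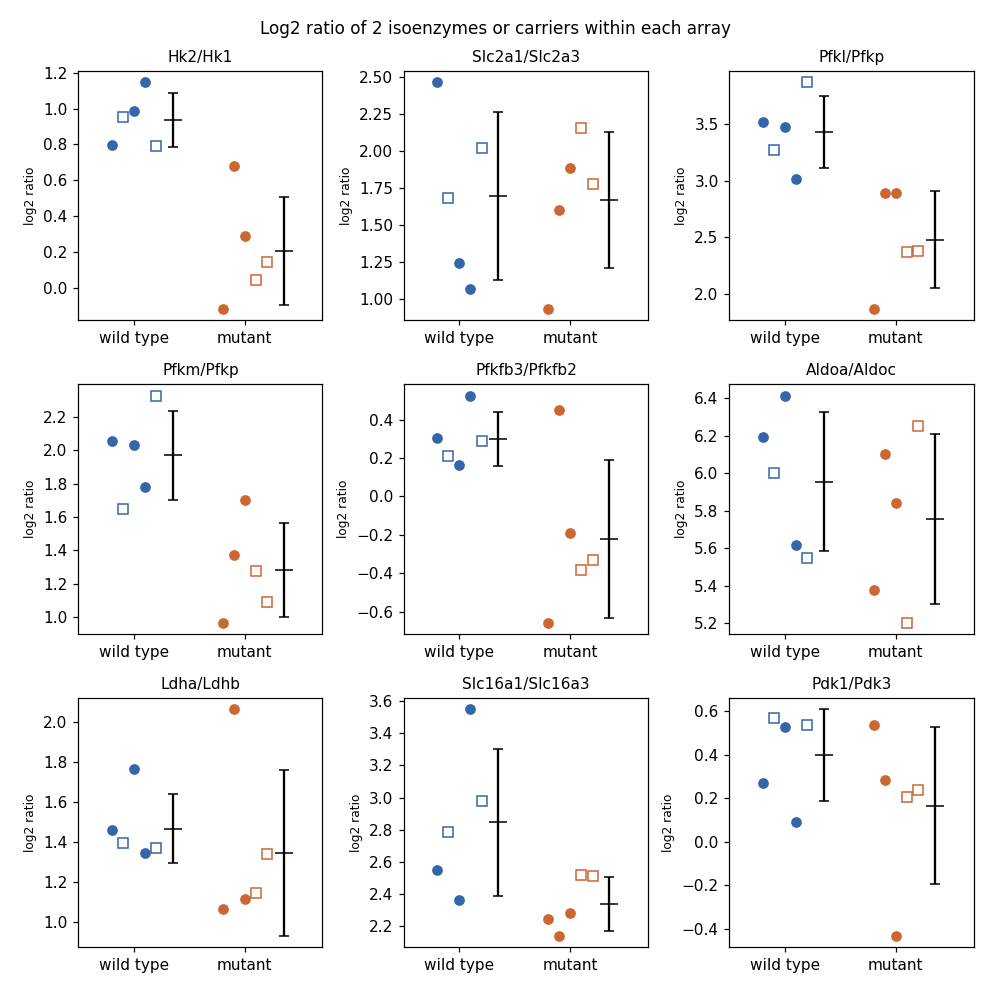
Log2 ratio of 2 genes of the same step within each array, for 9 pairs, wild type left and mutant right in each panel. Circles are low-18S arrays, open squares are high-18S arrays, and the bars give the mean ± SD of 5 arrays. The groups do not overlap for Hk2/Hk1 and Pfkl/Pfkp.

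The regulators of the pathway were read from a list of 12 genes, 11 of them measured. Mycn and Myc were lower at an unadjusted p under 0.05, 2 of 11, against 2.08% of all genes. Ppargc1a was higher at that level, 1 of 11, against 3.41% of all genes. The mutant arrays lay wholly below wild type for 1 of the 11, against 0.555% of all genes, and wholly above for 1, against 0.654%. Mycn, the Myc family member typical of embryonic progenitors and an activator of glycolytic genes, had signals of 530.5, 589, 607, 658 and 606 in wild type and of 445, 528, 411, 480.1 and 471 in the mutant. All mutant arrays lay below all wild-type arrays, though by a narrow gap, and the difference was -0.36 (SE 0.11, unadjusted p 0.0077 in limma). With the mean of its 3 probe sets it was -0.14 (unadjusted p 0.525 in limma), and with the next brightest one -0.32 (unadjusted p 0.229).

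Myc had signals of 594, 585, 618, 477 and 599 in wild type and of 412, 527, 417, 459 and 385 in the mutant. Wild-type replicate 4 lay among the mutant arrays, and the difference was -0.39 (SE 0.12, unadjusted p 0.0106 in limma). Ppargc1a, a coactivator of mitochondrial genes, had signals of 57.7, 97.9, 88.3, 93.7 and 82.7 in wild type and of 109, 131, 139, 146 and 119 in the mutant. All mutant arrays lay above all wild-type arrays, with a difference of 0.62 (SE 0.16, unadjusted p 0.00308 in limma). The adjusted p in limma was 0.678 for Mycn, 0.719 for Myc and 0.544 for Ppargc1a, so none of the 3 was called. The part of the nephron progenitors in the Mycn and Myc values was not tested.

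**Figure D5:**
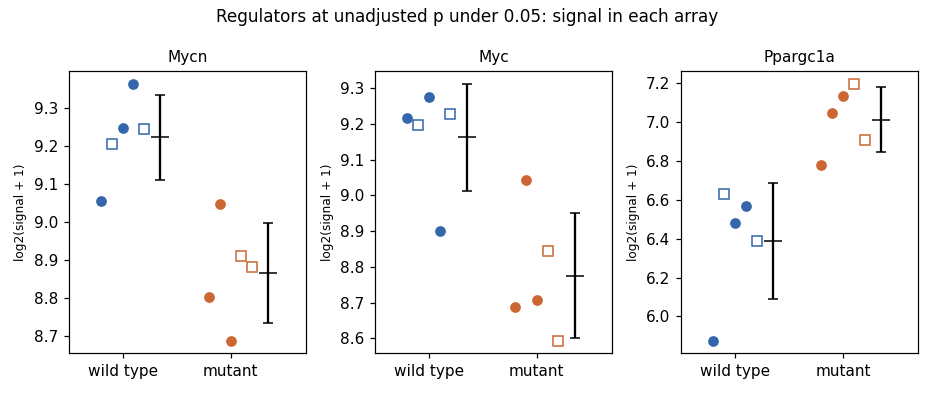
Log2(signal + 1) of Mycn, Myc and Ppargc1a on each array, wild type left and mutant right in each panel, with mean ± SD of 5 arrays. Circles are low-18S arrays and open squares are high-18S arrays. The groups do not overlap for Mycn and Ppargc1a, and 1 wild-type array lies among the mutant arrays for Myc.

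The oxygen-sensing side held no gene at an unadjusted p under 0.05. Hif1a was at 11.34 ± 0.14 in wild type and 11.21 ± 0.35 in the mutant, a difference of -0.14 (SE 0.17). Of 14 hypoxia response genes outside glycolysis, 7 had a lower and 7 a higher mean, the median difference was 0.00, and none had an unadjusted p under 0.05. P4ha2, a collagen hydroxylase, had the smallest p of them, at 0.45 (SE 0.23, unadjusted p 0.0766 in limma).

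Pathways that branch from glycolysis held no gene at an unadjusted p under 0.05. None of the 13 other glucose carriers and isoenzymes had an unadjusted p under 0.05, and the smallest was that of Slc2a10 at 0.20 (SE 0.17). The 6 genes of gluconeogenesis, the 6 measured genes of the pentose phosphate pathway and the 15 of the tricarboxylic acid cycle also held none, and their median differences were 0.02, -0.01 and -0.01. The members with the smallest p were Pck2 at 0.25 (SE 0.17), Rpia at 0.05 (SE 0.11) and Idh3a at -0.12 (SE 0.14). Of the 4 further subunits and phosphatases of the pyruvate dehydrogenase complex, Pdp2, a phosphatase that switches the complex on, had the smallest p at -0.34 (SE 0.20).

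Serine synthesis, which leaves glycolysis at 3-phosphoglycerate, had the lowest median of these lists, at -0.31 over 5 genes. The mean was lower in the mutant for 4 of them, against 45.1% of all genes. Shmt1 was at -0.37 (SE 0.21), Shmt2 at -0.01 (SE 0.12) and Psph at 0.15 (SE 0.14). Psat1 was at 10.69 ± 0.13 in wild type and 10.38 ± 0.26 in the mutant, a difference of -0.31 (SE 0.14, unadjusted p 0.053 in limma). Phgdh, the first enzyme of the branch, had a difference of -0.36 (SE 0.17, unadjusted p 0.0586 in limma) and was picked for mention after its value was seen. The Phgdh difference was -0.70 among high-18S arrays and -0.14 among low-18S ones. None of the 5 had an unadjusted p under 0.05.

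Markers of other cell types were read for the same arrays. Over all genes tested, 45.1% had a lower mean in the mutant, and 3.41% were higher at an unadjusted p under 0.05. Of 9 measured ureteric bud markers none had an unadjusted p under 0.05, and Wnt11 had the smallest, at 0.26 (SE 0.18). Their mean log2 signal was 7.20 to 8.28 in wild type and 6.94 to 8.60 in the mutant. All 8 macrophage markers had a higher mean in the mutant, with C1qa at 0.73 (SE 0.27, unadjusted p 0.0242 in limma), and their mean log2 signal was 7.08 to 7.33 in wild type and 6.90 to 7.94 in the mutant. All 6 endothelial markers had a higher mean, by a median of 0.13, led by Cdh5 at 0.26 (SE 0.14). Among 6 stromal markers, Pdgfra stood at 0.36 (SE 0.11, unadjusted p 0.00867 in limma) and 5 had a higher mean. Of 8 erythroid markers none had an unadjusted p under 0.05, Gata1 standing highest at 0.56 (SE 0.27), and of 6 skeletal muscle markers none did, Actn2 having the smallest p at 0.95 (SE 0.62). No marker of these lists was listed at 0 on any array. The part of these cells in the Pfkp, Eno2 and Ppargc1a values was not tested.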

How the data were processed

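RNA of 5 Wnt9b mutant and 5 wild-type pools was hybridised to 10 one-colour arrays. The deposited table holds probe-set intensity on a linear scale, scaled by the authors to a common trimmed mean and not centred. The algorithm of summarisation is not given in the sources at hand. Of 45101 probe sets, 64 controls were left out, 34958 had 1 gene symbol in the platform annotation and 932 several, and 34754 had a gene identifier found in RefSeq (GRCm38.p6). Values were taken as log2(signal + 1), with the brightest probe set per gene, and no further normalization because array medians differed by less than 0.5.

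Mutant and wild type were compared with lmFit and eBayes in limma 3.58.1 (R 4.3.3, statmod 1.5.0), two-sided, over all 18193 genes with Benjamini-Hochberg adjustment, and called means an adjusted p under 0.05. The script was tested on simulated data. Isoenzyme ratios were tested by exact permutation. Mean values are given ± SD, and the number of arrays limits the precision. Replicate numbers are names given in accession order and pair nothing.

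All listed genes are named. Signals on each array are given for genes with an unadjusted p under 0.05 or groups that do not overlap, and for the smallest p of each step. Of every other list, the gene with the smallest p and those with an unadjusted p under 0.05 are named. The genes and lists were chosen with earlier results of these data known. Sets of arrays were split at an 18S 5′ control signal of 1000. Alternatives were the choice of probe set, control probe sets allowed, a filter on the dimmest 40% of genes, quantile or median normalization, trend and robust moderation, array weights, a pseudocount of 16, the 18S set as a block, subsets of arrays, leaving out each array and, chosen after seeing the data, a block of arrays paired by the wording of their titles.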

Additional observations from a re-analysis of the deposited data

Results flagged for a closer look

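Single arrays that stood apart from the rest of their group, by Dixon's gap test at its 95% level for 5 values, were looked for in 180 groups of values, and 9 were marked, the number that chance gives at 1 in 20. Wild-type replicate 3 accounts for 6 of them. It was the highest wild-type array for Aldoa at a log2 signal of 13.04, against 12.31 to 12.50 on the others, for Tpi1 at 13.13, against 12.27 to 12.41, and for Pgk1 at 14.13, against 13.13 to 13.35. It was also the highest for Ldha at 13.41, against 12.53 to 12.67, for Pdha1 at 10.67, against 10.24 to 10.32, and for the Gapdh 3′ control at 14.08, against 13.11 to 13.29. This array had the brightest hybridisation controls of the wild-type group, and the part of that in these values was not tested.

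Wild-type replicate 4 was lowest for Myc at 8.90, against 9.20 to 9.27, and highest for Pck2 at 8.56, against 7.84 to 8.03. Mutant replicate 2 had the highest mean of the hypoxia response genes outside glycolysis, at 8.07, against 7.91 to 7.95.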

How the results depend on the processing

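No listed gene was called under any of the 24 alternatives, and the smallest adjusted p in limma was 0.0871, for Pfkp with the dimmest 40% of genes left out. The count of all genes called, 1 as reported, was 0 with the mean of probe sets, with the 18S set as a block, with a block of title pairs, within either 18S set and without the 2 bright-control arrays, 2 with the next brightest probe set, 6 without the dimmest 40% of genes, 10 with trend and robust moderation, and 0 to 2 on leaving out single arrays. The count of listed genes lower at an unadjusted p under 0.05, 2 as reported, was 1 with the mean of probe sets, the next brightest probe set and the low-18S arrays alone, and 2 to 3 on leaving out single arrays. The count higher, 2 as reported, was 1 with the next brightest probe set, without the dimmest 40% and in the high-18S arrays alone, and 2 to 3 on leaving out single arrays. Wholly below wild type was 1 gene with the mean of probe sets, the next brightest probe set and median centring, in each of which Slc16a1 overlapped. In the 4 high-18S arrays 12 genes lay wholly below. Wholly above were 0 with the next brightest probe set, 3 in either 18S set, and 1 to 2 on leaving out single arrays. The high-18S set holds 2 arrays a group and the low-18S set 3, and such small groups separate by chance far more often. The shares of 0.555% and 0.654% of all genes are for all arrays, and no share within the 18S sets is given. The counts of 12 and 3 can therefore not be read as an excess.

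Isoenzyme ratios that passed, 3 as reported, were 0 with the mean of probe sets, without the 2 bright-control arrays and within either 18S set, where no exact p could be below 0.333 or 0.1, and 0 to 5 on leaving out single arrays. Hk2 had an unadjusted p of 0.0763 in limma in the low-18S arrays and Eno2 one of 0.146 in the high-18S arrays. A difference more than 1 SE from 0 before or after turned its sign for Slc2a3 with the mean of probe sets (0.40) and, with the next brightest probe set, for Pfkfb3 (0.093), Slc16a1 (0.045) and Slc2a10 (-0.026). These alternatives read dimmer probe sets, and the cause was not tested. In all, 23 of the 32 listed genes took the other sign under at least 1 alternative.

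The labels give no replicate numbers, but their titles pair 3 mutant with 3 wild-type arrays by wording, and the other arrays more loosely. Over all genes, deviations from the group means correlated at 0.092 to 0.143 within these 5 pairs and at -0.143 to 0.069 between other arrays across genotypes, and all 10 arrays correlated best with their pair, a hint from the data and not the design. With the title pairs as a replicate block, chosen after seeing the data, 0 of all genes were called against 1 without it. Of the listed genes, 2 were lower and 3 higher at an unadjusted p under 0.05, with Pdk4 added (0.45, unadjusted p 0.027, adjusted p 0.626 in limma). The isoenzyme ratios were not tested within these pairs, and their exact p-values hold only if the arrays are unpaired. A two-sided exact permutation within 5 pairs has too few arrangements to reach a p under 0.05, so no ratio could pass it.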
